A study of Mus musculus with 28 samples.

Results

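The genes described here are 35 immediate early, heat shock and stress response genes, taken by name from the 33856 gene rows of each of 2 count tables of mouse liver. All 35 were found in both tables. Of these, 15 code for transcription factors and regulators of the immediate early class or close to it, 9 for cytosolic chaperones and their partners, 2 for the mitochondrial chaperonin, 6 for proteins of the endoplasmic reticulum stress response and 3 for the Gadd45 family. Together they contributed 439672 UMIs (counts of unique RNA molecules) in cell pairs, or 0.772% of gene UMIs, and 1.02% in single cells.

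The pairs were hepatocytes that had stayed attached to a CD31+ cell, from livers of 1 mouse of 6 weeks (2 libraries) and 2 mice of 7 weeks (8 and 7 libraries). The single non-parenchymal cells came from 1 mouse of 3 months (5 libraries) and 1 mouse of 4 months (6 libraries). All were male C57BL/6 mice kept on a reversed light cycle, fasted for 2 h and anaesthetised with ketamine and xylazine before the liver was perfused with collagenase, and RNA was counted from its 3' end by MARS-seq, a plate-based method. Undissociated tissue was not analysed here, so levels before and after dissociation could not be compared, and the labels give no treatment that differed between groups.

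Immediate early genes, such as Fos, Jun and Egr1, are transcribed within minutes of a growth factor, cytokine or injury signal and need no new protein for it; collagenase digestion of tissue is a known trigger. Heat shock genes are switched on by heat shock factor 1 when unfolded protein builds up in the cytosol, whereas Hspa5, Hsp90b1 and Herpud1 belong to the unfolded protein response of the endoplasmic reticulum, an organelle that hepatocytes use heavily to secrete plasma proteins. Blood flows through the liver lobule from the portal vein to the central vein, and hepatocyte gene expression follows that axis.

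The promoters of 5 members are shown because they carry the motifs that define these responses and because Hspb1 and Hspa1b leaned to the central side while Hspa5 and Hsp90b1 leaned slightly to the portal side and varied together. They are RefSeq windows of the GRCm38.p6 assembly, from 250 bases before to 50 after the start of the gene, written 5' to 3' on the gene's strand. Capitals mark paired heat shock elements in Hspb1, Hspa1b and Hspe1, where the 3 overlapping pairs of Hspe1 form 1 run, and endoplasmic reticulum stress elements in Hspa5 and Hsp90b1, the second of Hsp90b1 on the opposite strand. Hspb1 lies at chr5:135887669-135887968 (plus strand), Hspa1b at chr17:34959189-34959488 (minus strand), Hspe1 at chr1:55087898-55088197 (plus strand), Hspa5 at chr2:34771840-34772139 (plus strand) and Hsp90b1 at chr10:86705395-86705694 (minus strand).
Hspb1: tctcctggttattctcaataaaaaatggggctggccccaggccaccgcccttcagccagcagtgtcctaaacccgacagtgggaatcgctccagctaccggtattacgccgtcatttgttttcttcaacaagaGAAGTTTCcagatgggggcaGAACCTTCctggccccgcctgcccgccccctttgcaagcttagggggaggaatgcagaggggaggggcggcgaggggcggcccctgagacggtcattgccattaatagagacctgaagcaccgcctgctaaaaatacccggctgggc
Hspa1b: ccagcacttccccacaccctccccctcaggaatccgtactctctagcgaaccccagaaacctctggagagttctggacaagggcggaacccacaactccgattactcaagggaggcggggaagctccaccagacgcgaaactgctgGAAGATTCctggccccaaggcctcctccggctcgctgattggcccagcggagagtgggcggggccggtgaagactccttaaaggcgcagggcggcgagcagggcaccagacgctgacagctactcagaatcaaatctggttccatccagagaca
Hspe1: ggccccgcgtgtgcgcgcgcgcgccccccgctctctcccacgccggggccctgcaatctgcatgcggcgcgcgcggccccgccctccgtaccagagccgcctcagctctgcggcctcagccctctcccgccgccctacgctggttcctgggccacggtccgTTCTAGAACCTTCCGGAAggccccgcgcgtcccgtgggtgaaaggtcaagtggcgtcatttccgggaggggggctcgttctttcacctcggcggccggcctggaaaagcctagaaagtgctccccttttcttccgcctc
Hspa5: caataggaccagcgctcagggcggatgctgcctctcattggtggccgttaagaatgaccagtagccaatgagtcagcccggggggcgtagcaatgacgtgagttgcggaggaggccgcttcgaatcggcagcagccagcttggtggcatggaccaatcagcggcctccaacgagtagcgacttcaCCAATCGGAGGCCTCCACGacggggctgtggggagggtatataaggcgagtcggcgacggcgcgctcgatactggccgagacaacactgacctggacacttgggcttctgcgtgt
Hsp90b1: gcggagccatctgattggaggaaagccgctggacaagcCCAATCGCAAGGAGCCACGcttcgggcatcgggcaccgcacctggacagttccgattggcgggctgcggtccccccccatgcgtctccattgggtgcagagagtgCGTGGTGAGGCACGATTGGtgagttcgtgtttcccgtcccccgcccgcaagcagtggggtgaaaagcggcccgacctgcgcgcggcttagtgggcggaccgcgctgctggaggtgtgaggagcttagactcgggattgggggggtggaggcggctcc

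Windows were at hand for 29 of the 35 members, and those of Egr1, Ier2, Myc, Hspa8, Hsp90aa1 and Hsp90ab1 were not used here. All motifs were searched on both strands and in all 32851 windows of the table. Some genes have several windows (34 for the 29 members). Background shares are of windows, whereas a member counts if any of its windows matched. A pair of heat shock units (GAANNTTC or TTCNNGAA) was found in 15.1% of all windows, and in 5 of 6 cytosolic chaperone genes (Dnaja1, Hspa1a, Hspa1b, Hspb1, Hsph1), both mitochondrial genes and Jun. A run of 3 alternating units GAA and TTC, each 2 bases apart, which also holds the pair, was found in 0.603% of all windows and in Hsph1, Hspd1 and Hspe1. The endoplasmic reticulum stress element (CCAAT and CCACG with 9 bases between them) was in 0.119% of all windows and in Hspa5 and Hsp90b1. Of elements typical of immediate early genes, the cAMP response element (TGACGTCA, 1.79% of windows) was in Btg2 and Dusp1, the AP-1 site (TGANTCA, 7.81%) in Ddit3 and Hspa5, and the CArG box (1.63%) in Herpud1 and Zfp36. The box TATAAA (13.6%) was in Fos, Junb, Gadd45b and Gadd45g. The GC box GGGCGG, in 35.7% of windows, was in 27 of the 34 windows of members, or in 22 of the 29 members. Hspe1 and Hspd1 are transcribed away from each other, and 1 of the windows listed for Hspd1 shared 285 bases with that of Hspe1. The matched pairs began 117 and 97 bases before the start in Hspb1, 104 in Hspa1b and 89, 84 and 79 in Hspe1, and the stress element 65 bases before it in Hspa5 and 212 and 107 in Hsp90b1. The printed promoters were chosen partly by these data, so they do not show that a motif goes with a side of the lobule. Of other members with the heat shock pair, Hsph1, Hspe1 and Hspd1 had log2 ratios of central over portal level of 0.037, -0.0012 and 0.16. Dnaja1, Hspa1a and Jun had 0.48, 0.44 and 0.84. Endoplasmic reticulum members without a matched stress element ran from -0.33 (Herpud1) to 0.34 (Ddit3). A match is a run of letters, and no binding was measured. Elements more than 250 bases before the start lay outside the windows, so a missing match does not show that a gene lacks the element.

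Of 4621 pair wells, all but 1 were kept, with a median of 10451 gene UMIs (range 2423 to 49311). Each pair was placed along the lobule by 25 hepatocyte landmark genes, none of them a member, and the pairs were cut into 6 layers of 770, layer 1 nearest the central vein and layer 6 nearest the portal vein. Layers 1 and 2 are the pericentral zone and layers 5 and 6 the periportal zone. All 11 hepatocyte markers and all 20 endothelial markers were detected in pairs. Nothing in the files or labels says which library or mouse a well belongs to, and each table was taken as 1 sample: no test across mice was possible, and every interval is an exact 95% interval that covers counting error only. Well numbers came in 17 plate-sized blocks, 15 of them with 283 to 320 pairs. Blocks 1 and 2 held 8 and 67 pairs, with a median of 23400.5 and 21427 UMIs, and stood apart in depth from the others (medians 7400.5 to 13296). Blocks 10 to 16 held 63.0% of the pericentral and 33.7% of the periportal pairs, so the ratio of each gene between zones is also given with equal numbers of pairs taken from each block in both zones ("within blocks").

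Stress genes did not share one position in the lobule. Egr1 and Fos were highest next to the portal vein, whereas Jun, Atf3, the small heat shock protein gene Hspb1, the inducible Hspa1b and the growth arrest genes Gadd45a and Gadd45b were highest next to the central vein. Fosb, with 11 UMIs in all pairs, was not counted between zones, and the other 34 members had at least 100 UMIs over both zones. Of these, 7 were at least 1.5-fold higher in the pericentral zone, where the background was 7.06% of 9523 genes, and 2 were at least 1.5-fold higher in the periportal zone, against 3.27%. Within blocks the counts were 6 and 2, with backgrounds of 5.89% and 3.11%. The median log2 ratio of pericentral over periportal level was 0.19 over the 34 members and 0.089 over all genes counted.

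**Figure D1:**
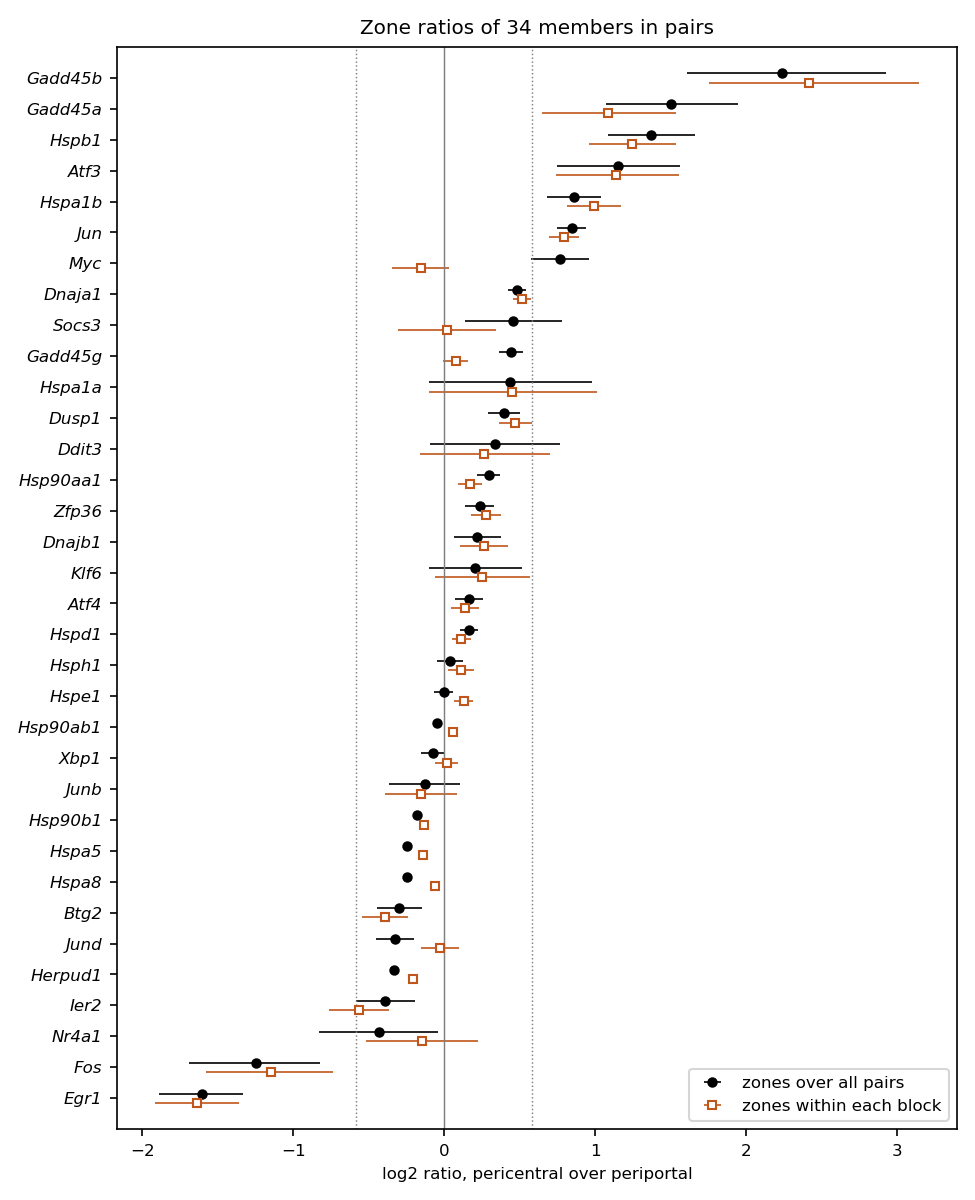
Log2 ratio of the pericentral over the periportal level (x axis) for 34 members (y axis), with 95% counting intervals; filled circles take the zones over all pairs, open squares within each block, and dotted lines mark 1.5-fold. Gadd45b stands at the top (2.24) and Egr1 at the bottom (-1.60), while Myc is at 0.77 over all pairs and -0.15 within blocks.

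Among the immediate early genes, Egr1, a zinc finger transcription factor, had 8.70, 6.72, 9.61, 9.67, 13.9 and 32.6 CPM (UMIs per 1000000 gene UMIs) in layers 1 to 6. It was nearly level over the first 4 layers, and the step lay between layers 5 and 6, where its log2 ratio of layer 6 over layer 5 was 1.23 (0.93 to 1.54). A UMI of Egr1 was found in 8.96% of layer 1 pairs and 25.3% of layer 6 pairs, and with every pair thinned to 2000 UMIs in 1.04% of layer 1 pairs and 5.19% of layer 6 pairs. Between the zones the log2 ratio was -1.60 (interval -1.89 to -1.33), and within blocks -1.63 (-1.91 to -1.36), with the same direction in 15 of 16 blocks that held at least 10 of its UMIs.

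Fos, the partner of Jun in the AP-1 factor, had 3.19, 3.72, 5.58, 5.61, 7.69 and 8.78 CPM in layers 1 to 6, an increase in small steps whose neighbouring layers had overlapping intervals. Its zone levels were 3.47 pericentral and 8.24 periportal, from 65 pericentral and 156 periportal UMIs. The log2 ratio was -1.25 (interval -1.69 to -0.82), and -1.15 (-1.58 to -0.73) within blocks, where 12 of 13 blocks had its direction. Fos UMIs were found in 6.00% of pairs. Ier2, an immediate early gene of the nucleus, and Btg2, an antiproliferative gene, leaned the same way without passing 1.5-fold: Ier2 had 20.7 CPM in layer 1 and 30.01 in layer 6 (log2 ratio between zones -0.39, within blocks -0.56, 15 of 16 blocks), and Btg2 had 37.1 in layer 1 and 51.7 in layer 6 (log2 ratio -0.30, within blocks -0.39, 11 of 16 blocks).

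Marker sums of other cell types were not all even along the axis. The summed level of 7 cholangiocyte markers was 2.86, 5.90, 10.2, 16.4, 36.1 and 71.9 CPM in layers 1 to 6, with 4 of the 7 detected and the defining Krt19, Krt7 and Cldn7 at 0. The 20 endothelial markers summed to 896 in layer 1, 1139 in layer 4 and 1068 in layer 6, a log2 ratio between zones of -0.21. The 11 Kupffer cell markers in the table lay between 8.90 and 12.7 in all layers, and the 12 T cell markers (10 detected) at 3.52 in layer 1 and 1.15 in layer 6. The 7 cell cycle markers summed to 12.1 in layer 1, 25.1 in layer 2 and 9.83 in layer 6, and the plasma cell markers (4 of 7 in the table, 3 detected) to 89.0 in layer 1 and 165 in layer 6. The 7 B cell markers in the table summed to 0.991 in layer 1 and 0.418 in layer 6, and the 7 plasmacytoid dendritic markers to 156 and 152. A sum does not show which cell of a pair held the RNA. What part other cell types have in the ratios of Egr1, Fos and the pericentral members was not tested. More cells of a type, more RNA per cell and expression of a marker by the hepatocyte itself cannot be told apart in these wells.

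Jun went the opposite way to Fos. Its levels were 134, 118, 105, 101, 77.2 and 63.1 CPM in layers 1 to 6, lower in every layer than in the one before. The log2 ratio between zones was 0.84 (interval 0.75 to 0.94), and 0.80 (0.70 to 0.90) within blocks, in the direction of 15 of 16 blocks. Atf3, a repressor induced by many stresses, had 11.2, 6.72, 5.48, 5.30, 4.27 and 3.76 CPM, with the highest value in layer 1. Its log2 ratio was 1.15 (interval 0.75 to 1.56), and 1.14 (0.74 to 1.56) within blocks, in 11 of 13 blocks.

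Myc, a growth-promoting transcription factor, passed 1.5-fold over all pairs only. It had 28.5, 35.9, 29.8, 23.2, 20.1 and 17.98 CPM in layers 1 to 6 and a log2 ratio of 0.77 (interval 0.57 to 0.96), but -0.15 (-0.34 to 0.032) within blocks. Within blocks 10 to 16 the log2 ratio was -0.28 (-0.48 to -0.080), from 385 pericentral and 456 periportal UMIs. Within blocks 3 to 9 and 41 it was 0.996 (0.39 to 1.63), from 70 pericentral and 34 periportal UMIs.

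The remaining immediate early members stayed under 1.5-fold. Dusp1, a phosphatase that ends MAP kinase signalling, had 88.7 CPM pericentrally and 67.3 CPM periportally (log2 ratio 0.40, within blocks 0.47, 14 of 16 blocks). Zfp36, which destabilises cytokine mRNAs, had 97.9 CPM pericentrally and 83.2 CPM periportally (log2 ratio 0.23, within blocks 0.28). Socs3, the feedback inhibitor of cytokine signalling, and Jund had almost no slope within blocks: Socs3 had log2 ratios of 0.46 over all pairs and 0.021 within blocks, and Jund of -0.32 over all pairs and -0.029 within blocks. Junb (-0.13, within blocks -0.15) and Klf6 (0.21, within blocks 0.25) had intervals over all pairs that held 0, and Nr4a1, an orphan nuclear receptor, had -0.43 over all pairs and -0.15 (-0.52 to 0.22) within blocks.

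The Gadd45 genes, which take part in growth arrest and DNA demethylation and repair, had the steepest member of the set. Gadd45b had 7.93, 4.66, 3.20, 3.64, 1.92 and 0.732 CPM in layers 1 to 6, and 117 UMIs in the pericentral zone against 25 in the periportal zone. Its log2 ratio was 2.24 (interval 1.61 to 2.93), and 2.42 (1.75 to 3.14) within blocks, in 6 of 6 blocks with enough UMIs. Gadd45a, a target of p53, had 9.91, 8.38, 6.51, 6.13, 4.59 and 1.88 CPM, with each layer lower than the one before. Its log2 ratio was 1.501 (interval 1.07 to 1.95), and 1.09 (0.65 to 1.54) within blocks. Gadd45g had 155 CPM pericentrally and 114 CPM periportally, a log2 ratio of 0.44 that shrank to 0.076 (-0.0057 to 0.16) within blocks.

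**Figure D2:**
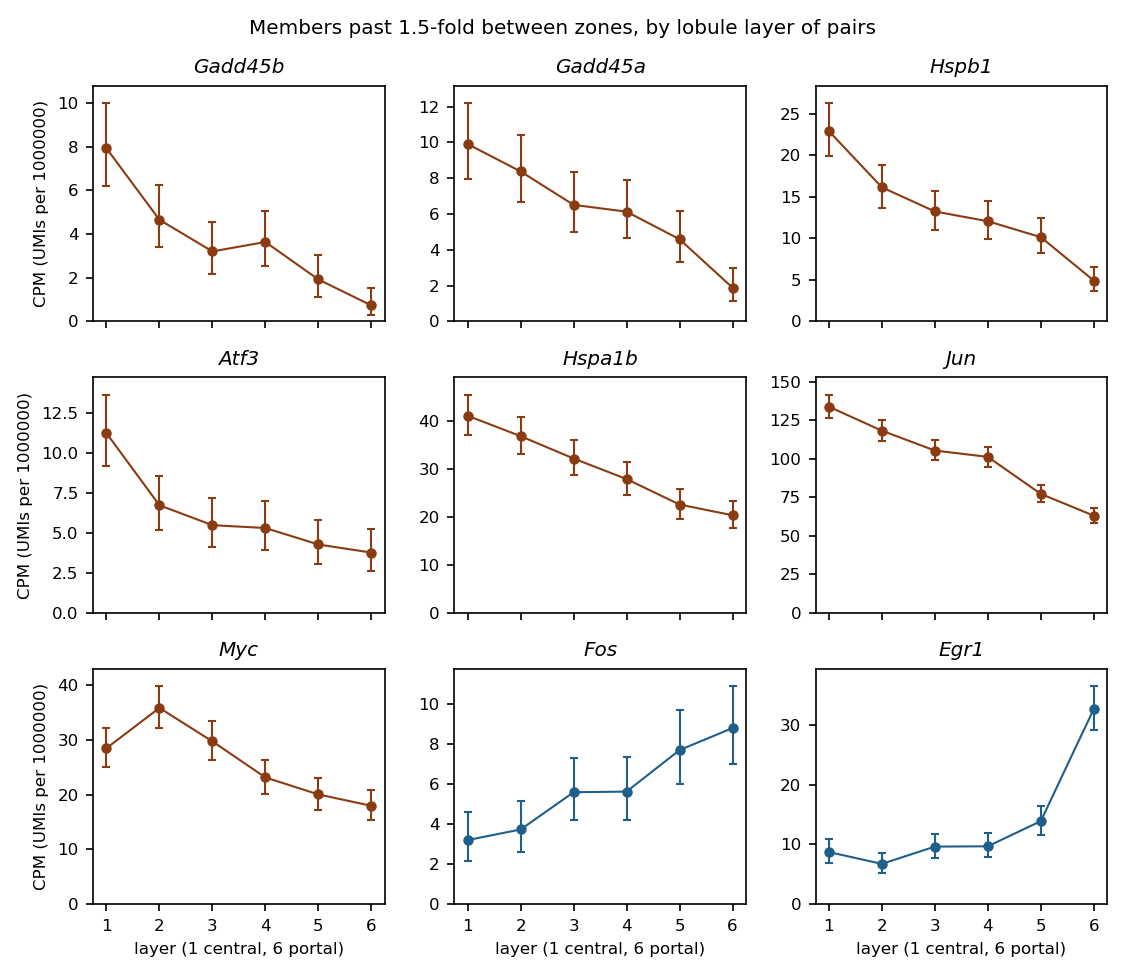
CPM (y axis, from 0) in layers 1 to 6 (x axis) for the 9 members past 1.5-fold between zones, with 95% counting intervals. The 7 members in brown are higher in the pericentral zone, and Fos and Egr1, in blue, in the periportal zone; Egr1 takes its step at layer 6 (32.6).

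Of the 9 cytosolic chaperone genes, Hspb1 and Hspa1b leaned furthest to the central side. Hspb1, a small heat shock protein that holds unfolded proteins, had 22.9, 16.1, 13.2, 12.1, 10.1 and 4.91 CPM in layers 1 to 6 and a log2 ratio of 1.37 (interval 1.09 to 1.66), and 1.24 (0.96 to 1.53) within blocks (15 of 16 blocks). Hspa1b, the stress-inducible Hsp70 whose promoter is printed with its paired heat shock element, had 41.2, 36.9, 32.3, 28.0, 22.6 and 20.4 CPM. Its log2 ratio was 0.86 (interval 0.68 to 1.04), and 0.99 (0.81 to 1.17) within blocks, with the same direction in 16 of 16 blocks. Hspa1a, its near copy, had 3.79 CPM pericentrally and 2.80 CPM periportally (log2 ratio 0.44 (interval -0.10 to 0.98), within blocks 0.45 (-0.10 to 1.01)). The open reading frames of Hspa1a and Hspa1b were 99.5% identical and the last 300 bases of their transcripts 52.8%, so how reads were divided between them is uncertain where they fell outside the 3' end.

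Dnaja1, a co-chaperone of the Hsp40 family, stayed under 1.5-fold but leaned to the pericentral side in all 16 blocks counted: it had 299.9, 270.0, 251, 231, 214 and 194 CPM, a log2 ratio of 0.48 (interval 0.42 to 0.54), and 0.52 (0.46 to 0.58) within blocks (16 of 16). Dnajb1, the Hsp40 that works with inducible Hsp70, had a log2 ratio of 0.22 (0.26 within blocks), and Hsp90aa1, the inducible Hsp90, of 0.29 (0.17 within blocks). The constitutive Hspa8 and Hsp90ab1 stayed under 1.5-fold: Hspa8 had 862 CPM pericentrally and 1022 CPM periportally (log2 ratio -0.24, within blocks -0.060), and Hsp90ab1 1462 CPM pericentrally and 1511 CPM periportally (log2 ratio -0.047, within blocks 0.060). Hsph1, a heat-inducible Hsp110 whose window held the run of 3 heat shock units, had a log2 ratio of 0.037 (0.11 within blocks). The mitochondrial chaperonin Hspd1 (Hsp60) had 238 CPM pericentrally and 213 CPM periportally (log2 ratio 0.16, within blocks 0.11), and its lid Hspe1 (Hsp10) 214 CPM pericentrally and 214 CPM periportally (log2 ratio -0.0012, within blocks 0.13).

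None of the 6 endoplasmic reticulum members passed 1.5-fold. Hspa5, Hsp90b1 and Herpud1 were each lowest in layer 1 and highest in layer 5. Hspa5 (BiP), the main chaperone of that compartment, had 1100.2, 1176, 1291, 1398, 1429 and 1273 CPM in layers 1 to 6 (log2 ratio between zones -0.24, within blocks -0.14, 15 of 17 blocks). Hsp90b1 (GRP94) had 1035, 1115, 1158, 1206, 1271 and 1172 (-0.18, within blocks -0.13, 17 of 17 blocks), and Herpud1, which helps to degrade misfolded proteins, 733, 814, 899, 933, 988 and 959 (-0.33, within blocks -0.21). The transcription factors of the response were flat or leaned the other way: Xbp1 had a log2 ratio of -0.075 (0.018 within blocks), Atf4 of 0.17 (0.14 within blocks), and Ddit3 (CHOP), with 105 pericentral and 84 periportal UMIs, of 0.34 (interval -0.092 to 0.77) and 0.27 (-0.16 to 0.70) within blocks.

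Other genes of the same pathways were near the background when pooled, but the lists differed. Over the 4 lists, 105 of 118 further genes reached 100 UMIs over both zones. Of these, 7 (6.67%) were at least 1.5-fold higher pericentrally and 4 (3.81%) periportally, beside the 7.06% and 3.27% of all genes. The shares were 14.3% and 11.4% in the immediate early list and 6.06% and 0% in the cytosolic list. All 4 periportal and 5 of the 7 pericentral genes were among the 35 counted of 44 immediate early and growth response genes, with Cyr61 (1.65, within blocks 1.67; 9.98 CPM pericentrally and 3.17 CPM periportally) and Maff (1.19, within blocks 0.93) at one end and Id1 (-1.09, within blocks -0.76) and Id2 (-0.92, within blocks -0.59) at the other, as log2 ratios of pericentral over periportal level. Of 34 further cytosolic chaperone genes, 33 were counted; Hspb6 (1.12, within blocks 1.20) and Dnaja4 (0.77, within blocks 0.58) were past 1.5-fold pericentrally, Dnaja4 over all pairs only, and none periportally, where Stip1 (-0.21, within blocks -0.086) and Dnajb6 (-0.15, within blocks 0.091) were lowest. Hspb6 is a small heat shock protein like Hspb1, and it leaned to the pericentral side in 16 of 16 blocks. None of 8 mitochondrial genes passed 1.5-fold, and their log2 ratios ran from Clpx (-0.18, within blocks 0.00049) and Afg3l2 (-0.13, within blocks -0.048) to Trap1 (0.22, within blocks 0.17) and Grpel1 (0.37, within blocks 0.33). None of the 29 counted of 32 endoplasmic reticulum stress genes did, from Asns (-0.44, within blocks -0.24) and Sdf2l1 (-0.32, within blocks -0.075) to Chac1 (0.46, within blocks 0.14) and Trib3 (0.54, within blocks 0.58). The median log2 ratios of the immediate early, cytosolic, mitochondrial and endoplasmic reticulum lists were 0.12, 0.15, 0.11 and -0.094, beside 0.089 over all genes.

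Several members also differed between well-number blocks. Over the 15 large blocks, Nr4a1, with 378 UMIs, had the widest range of the members (29.1-fold), and Myc the widest of those with at least 1000 UMIs. Myc lay between 46.4 and 60.3 CPM in blocks 10 to 16 (median 57.1), and between 2.98 and 6.14 in blocks 3 to 9 and 41 (median 5.07), with no overlap. A Myc UMI was found in 38.2% of the 2115 pairs of blocks 10 to 16 and in 5.88% of the 2430 pairs of the other group. Gadd45g lay at 162 to 225 in blocks 10 to 16 and 43.9 to 102 in the others, and Socs3 at 13.03 to 17.2 in blocks 10 to 16 and 3.38 to 7.17 in the others. Atf3 (5.76 to 9.85 in blocks 10 to 16, 2.43 to 5.71 in the others) and Gadd45a (6.23 to 12.3 in blocks 10 to 16, 0.844 to 5.35 in the others) also did not overlap. Hspa8 and Hspa5 ran the other way: Hspa8 lay at 653 to 935 in blocks 10 to 16 and 990.3 to 1254 in the others, and Hspa5 at 939 to 1257 in blocks 10 to 16 and 1365 to 1531 in the others.

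By level alone, counting error aside, 5 of the 34 members with at least 100 UMIs were wholly above and 2 wholly below in blocks 10 to 16. The shares of 10232 genes were 2.18% and 2.06%. Counting error could close 2 of these gaps. For Atf3, 5.76 CPM (16 UMIs) in block 12 stood against 5.71 (27 UMIs) in block 6. For Gadd45a, 6.23 (16 UMIs) in block 16 stood against 5.35 (19 UMIs) in block 5. Both groups of blocks follow the numbers that library titles of the 2 mice of 7 weeks carry, but no source ties a block to a library, so mouse and plate cannot be told apart here. Median landmark scores, where higher is more pericentral, were 0.553 to 0.675 in blocks 10 to 16 and 0.365 to 0.468 in the others.

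Over all 17 blocks, 11 of the 22 members with at least 1000 UMIs differed at least 3-fold between the highest and the lowest block, beside 34.3% of 5018 genes. Over the 15 large blocks the count was 3 (Myc 20.3-fold, Gadd45g 5.13-fold, Jund 3.999-fold), beside 5.52%. Without block 1 alone the count was 6, a setting for which the share over all genes was not counted. In 10 of the 11, all but Dusp1, the lowest block was block 1, with 8 pairs. Herpud1 had 127 CPM in block 1, a median of 837 and 1070.3 in block 3, and block 2 had 209.6. Jund had 5.27 (1 UMI) in block 1, a median of 45.5 and 99.7 in block 3. The lowest, median and highest were 26.4, 88.0 and 156 for Jun, 5.27, 23.0 and 31.4 for Ier2, and 15.8, 35.9 and 54.9 for Btg2. For the chaperones they were 10.5, 27.2 and 41.6 for Hspa1b, 406, 1479 and 2076 for Hsp90ab1, and 390.1, 1156 and 1359.5 for Hsp90b1. Gadd45g had 42.2, 96.1 and 225, and Myc, with 0 UMIs in block 1, 0, 5.85 and 60.3, at least 3.81-fold against a floor of 3 counts in that block.

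Dusp1, Egr1 and Fos were highest in block 2. Dusp1 had 175 CPM there, a median of 81.7 and a lowest value of 51.6 (block 15), and Egr1 had 33.1 there and 7.01 to 16.9 in the 15 large blocks. Fos had 10.2 (16 UMIs) in block 2 and at most 8.003 in the large blocks. Kupffer cell markers summed to 65.0 CPM in block 2 and to 4.78 to 14.1 in the large blocks, and monocyte markers to 20.4 in block 2 and at most 1.93 in the large blocks; their part in these levels was not tested. Nr4a1 was high in block 3: it had 52.3 CPM there and at most 5.81 in any other large block. The 170 UMIs came from 122 of 303 pairs, with at most 5 in a pair. Of 10232 genes with at least 100 UMIs, 0.215% had 1 large block at least 5-fold above every other.

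**Figure D3:**
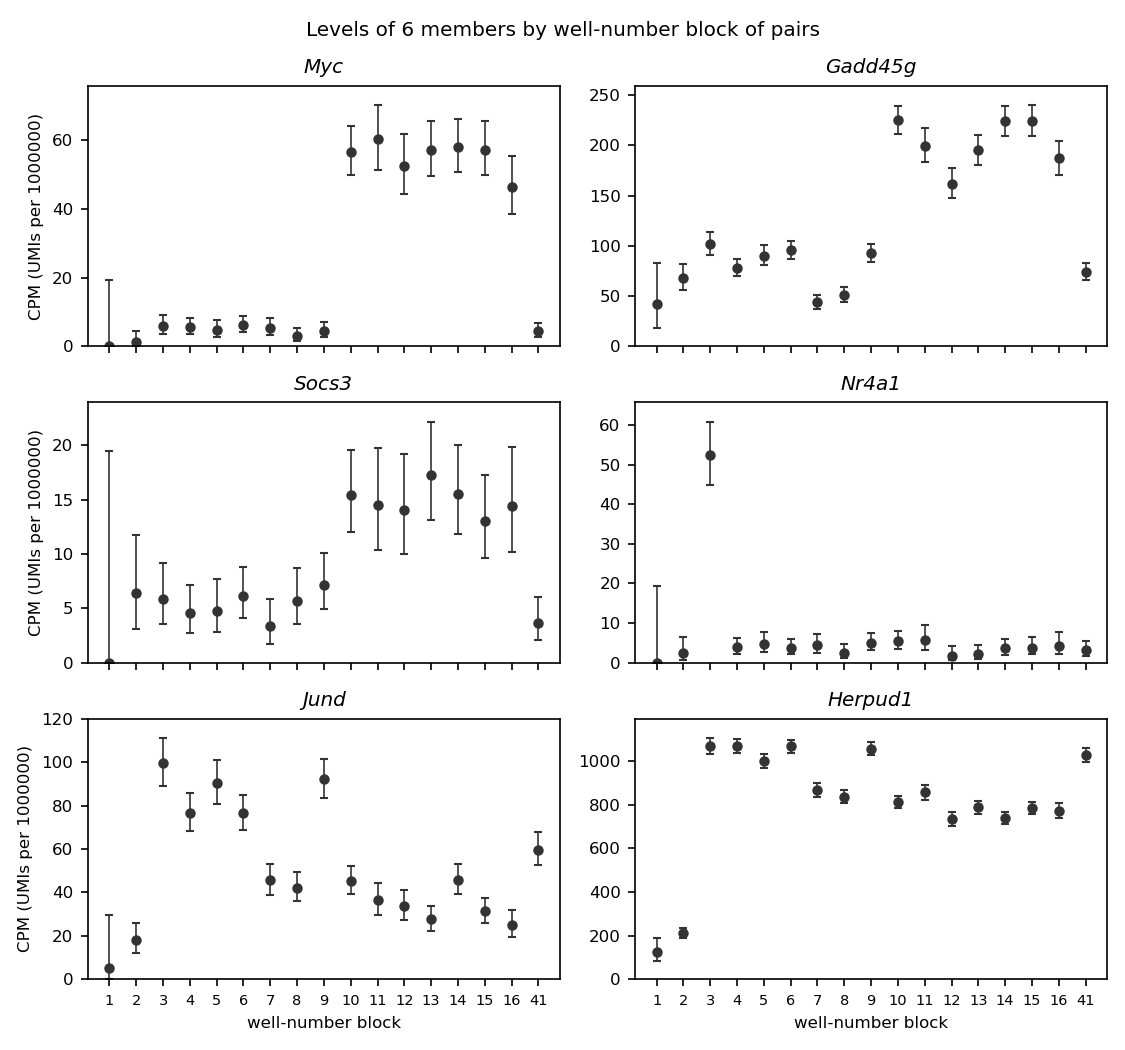
CPM (y axis, from 0) of 6 members in each of the 17 well-number blocks of pairs (x axis), with 95% counting intervals. Myc, Gadd45g and Socs3 are higher in blocks 10 to 16, Nr4a1 stands out in block 3 (52.3), and Herpud1 and Jund are low in blocks 1 and 2.

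From pair to pair within a block and layer, correlations between members were mostly near 0. Among the 27 members with a UMI in at least 10% of pairs, 351 gene pairs were compared by Pearson's r of log2(UMIs per 10000 + 1) across all kept pairs, after the mean of each block and layer had been removed; wells share their plate and depth, and the values are descriptions. Pairs of other genes were not compared, so no background share is given. Few UMIs of a gene per well pull r towards 0, so a low r does not show that members vary apart. The median r was 0.025, 13 of 351 reached 0.1 and 1 reached 0.2. That one joined Hspa5 and Hsp90b1 (r = 0.32), the 2 members whose printed promoters hold the endoplasmic reticulum stress element. The next were Hspa8 with Dnaja1 (0.17) and Hspa8 with Hspe1 (0.15), and the lowest Hspa8 with Hspa5 (-0.13), all weak. The promoters of Hspa5 and Hsp90b1 were printed partly because these genes varied together, and a part of the element in their r was not tested. Of the other endoplasmic reticulum members compared, Herpud1 had r of 0.074 with Hspa5 and 0.017 with Hsp90b1. Xbp1 had -0.036 and -0.014 with these, and Atf4 -0.029 and -0.032. Hspd1 and Hspe1, which share a promoter region, had an r of 0.086.

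**Figure D4:**
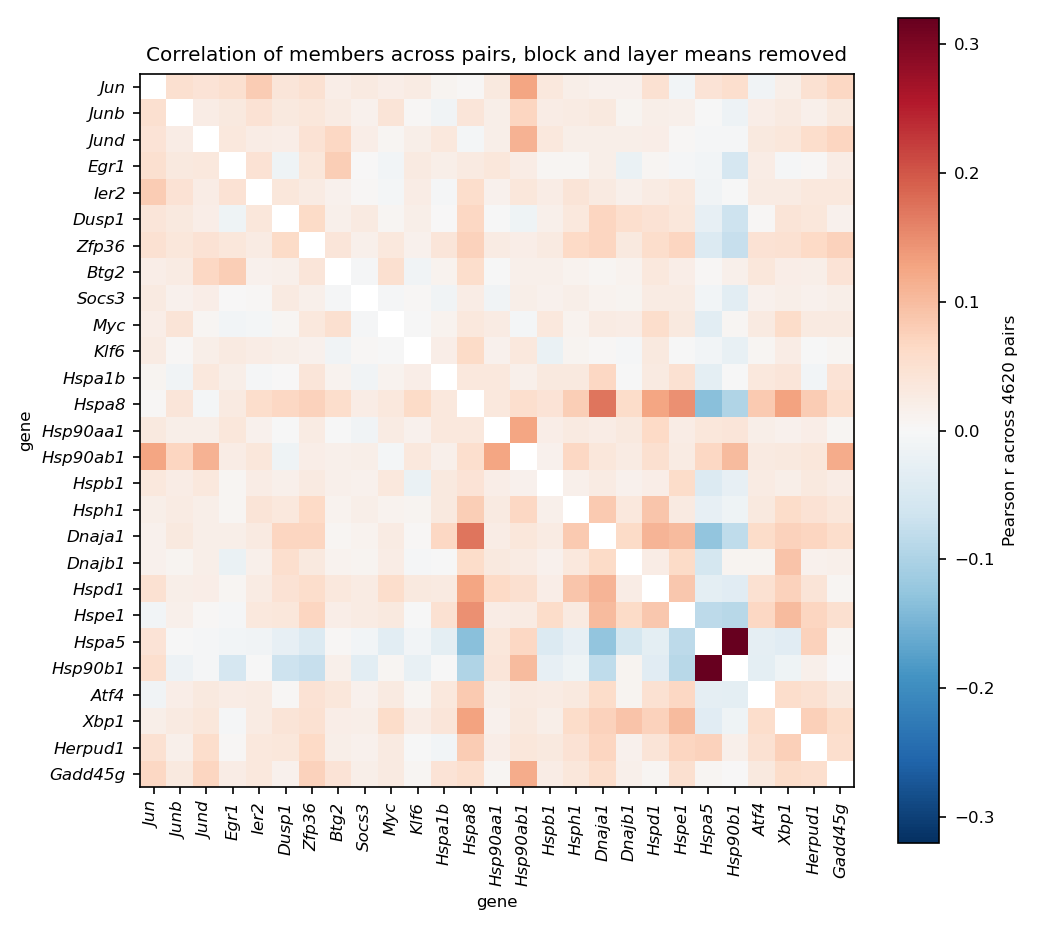
Pearson's r between 27 members (both axes) across the kept pairs, with block and layer means removed; red is positive and blue negative, and the diagonal is left white. The darkest cell is Hspa5 with Hsp90b1 (r = 0.32), and the bluest Hspa8 with Hspa5 (-0.13).

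In single non-parenchymal cells, levels of the members were compared between cell classes. Of 3720 wells, 2692 held at least 300 UMIs (median 710), and clusters made without the members gave 8 classes named from markers: 849 endothelial-like, 280 Kupffer-like, 169 conventional dendritic-like, 111 plasmacytoid dendritic-like, 288 B-like, 886 T-like, 81 NK-like and 28 neutrophil-like cells. One of the 2 T-like clusters, with 345 cells, had mast cell genes (Tpsb2, Cpa3) among its leading genes. The other, with 541 cells, had genes of NK cell receptors (Klra5, Klra6, Klrc1) beside T cell receptor genes (Trac, Tcrg-c) among its leading genes and 11 of 12 T cell markers at least 2-fold up. T-like levels are those of both clusters summed. The conventional dendritic-like cluster had Retnla and Alox15 beside Xcr1 among its leading genes, with 8 of 9 markers at least 2-fold up. With at least 500 UMIs per cell, 100 cells took that name. Another cluster of 89 cells, named neutrophil-like there, had Alox15 and the monocyte markers F13a1 and Cx3cr1 among its leading genes. Whether such cells are part of the conventional dendritic-like class was not tested. The neutrophil-like class held only 12752 UMIs, so 3 UMIs were worth 235 CPM. Albumin RNA of hepatocytes was found in all classes, at 4.42% (conventional dendritic-like) to 11.3% (neutrophil-like) of its level in pairs, and 8.72% in endothelial-like cells. RNA carried over from hepatocytes at that ratio would equal 33.1% of the endothelial-like level of Hspd1, 32.1% of that of Herpud1 and 2.56% of that of Jun.

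Against the mean of the other 7 classes, 4 of the 35 members were at least 2-fold higher in endothelial-like cells (background 21.0% of 9476 genes, a larger share than among the members) and 11 at least 2-fold lower (21.7%). Of all 35, Jun alone had an endothelial-like interval above that of every other class and separate from it. It had 339.8 CPM in endothelial-like cells (294 to 390.3, 200 UMIs), against 145 in Kupffer-like, 144 in plasmacytoid dendritic-like, 68.9 in B-like, 56.8 in conventional dendritic-like, 43.5 in T-like, 35.5 in NK-like and 0 in neutrophil-like cells. The wells fell into 2 ranges of numbers, and Jun was at 352 and 317 in the endothelial-like cells of each. Hspb1 had 51.0 (30 UMIs) in endothelial-like cells, against a mean of 6.79 over the other classes, 3 of which were at 0. Plasmacytoid dendritic-like cells had 36.1 Hspb1 CPM (9.84 to 92.4, 4 UMIs), which overlaps the endothelial-like interval (34.4 to 72.8). Ddit3 had 57.8 in endothelial-like cells, against a mean of 17.7 over the other classes, of which NK-like and neutrophil-like cells were at 0. T-like cells had 43.5 (30.5 to 60.3), which overlaps the endothelial-like interval (40.01 to 80.7). Gadd45g had 61.2 in endothelial-like cells, against a mean of 29.2 over the other classes, although Kupffer-like cells had 86.4. Against the summed UMIs of all other named cells, Ddit3 (0.95) and Gadd45g (0.96) fell under 2-fold as log2 ratios.

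The 11 lower members were Fos, Atf3, Zfp36, Btg2, Myc, Hspa1a, Hspa1b, Hsp90aa1, Hspe1, Gadd45a and Gadd45b. For several of them the 28 neutrophil-like cells led the mean of the other classes. Fos had 131 CPM in endothelial-like cells, against 1176 (15 UMIs) in neutrophil-like, 259 in Kupffer-like, 246 in conventional dendritic-like, 109 in B-like, 90.3 in plasmacytoid dendritic-like, 36.3 in T-like and 17.7 in NK-like cells. Against the summed UMIs of all other named cells its log2 ratio was 0.026, in place of -1.08. Gadd45a had 15.3 in endothelial-like cells, against 627 (8 UMIs) in neutrophil-like cells and at most 28.4 in any other class; its log2 ratio was -2.68 against the mean of the 7 classes, -0.065 against the summed cells and 0.63 without the neutrophil-like class. Without that class Fos (0.048), Zfp36 (-0.57) and Atf3 (-0.86) were not 2-fold lower either, nor was Zfp36 against the summed cells (-0.45). Neutrophil-like cells had the highest level of 12 members, but in 4 only (Fos, Junb, Dusp1, Gadd45a) was the interval separate from the next class. The share of all genes highest in this small class was not counted, so the 12 cannot be read as particular to the members. Dusp1 had 454 in endothelial-like cells, against 2588 (1781 to 3634) in neutrophil-like and 867 (773 to 969) in Kupffer-like cells. All 8 Gadd45a UMIs of neutrophil-like cells came from 1 range of well numbers.

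Other classes led for other members. Xbp1 had 197 in endothelial-like cells and was highest in plasmacytoid dendritic-like cells, a secretory cell type, at 632 (493 to 798), with 235 in conventional dendritic-like cells. Hsp90aa1 had 136 in endothelial-like cells and 839.5 in plasmacytoid dendritic-like cells, its highest level, and Hsp90ab1 2078 in endothelial-like cells and 3150.4 in plasmacytoid dendritic-like cells, likewise its highest. Of the Hsp70 family, Hspa8, Hspa1a and Hspa1b were highest in conventional dendritic-like cells and Hspa5 in Kupffer-like cells. Only for Hspa8 was the interval of the highest class separate from that of the next. Hspa8 had 1400.1 in endothelial-like cells, against 3667 (3439.7 to 3906) in conventional dendritic-like and 2495 in T-like cells. Hspa1a had 13.6 in endothelial-like, 121 (82.9 to 171) in conventional dendritic-like and 86.4 (58.7 to 123) in Kupffer-like cells. Hspa1b had 11.9 in endothelial-like, 133 (92.4 to 184) in conventional dendritic-like, 88.7 (28.8 to 207) in NK-like and 80.8 (54.1 to 116) in Kupffer-like cells. Myc had 11.9 in endothelial-like cells, against 174 (126 to 235) in B-like and 100.4 in T-like cells, but B-like cells had 235 in one range of well numbers and 49.5 in the other. Hspa5 had 710.2 CPM in endothelial-like cells and 514 (NK-like) to 942 (Kupffer-like) elsewhere, and Hsp90b1 916 in endothelial-like cells and 314 (neutrophil-like) to 1625 (plasmacytoid dendritic-like) elsewhere.

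**Figure D5:**
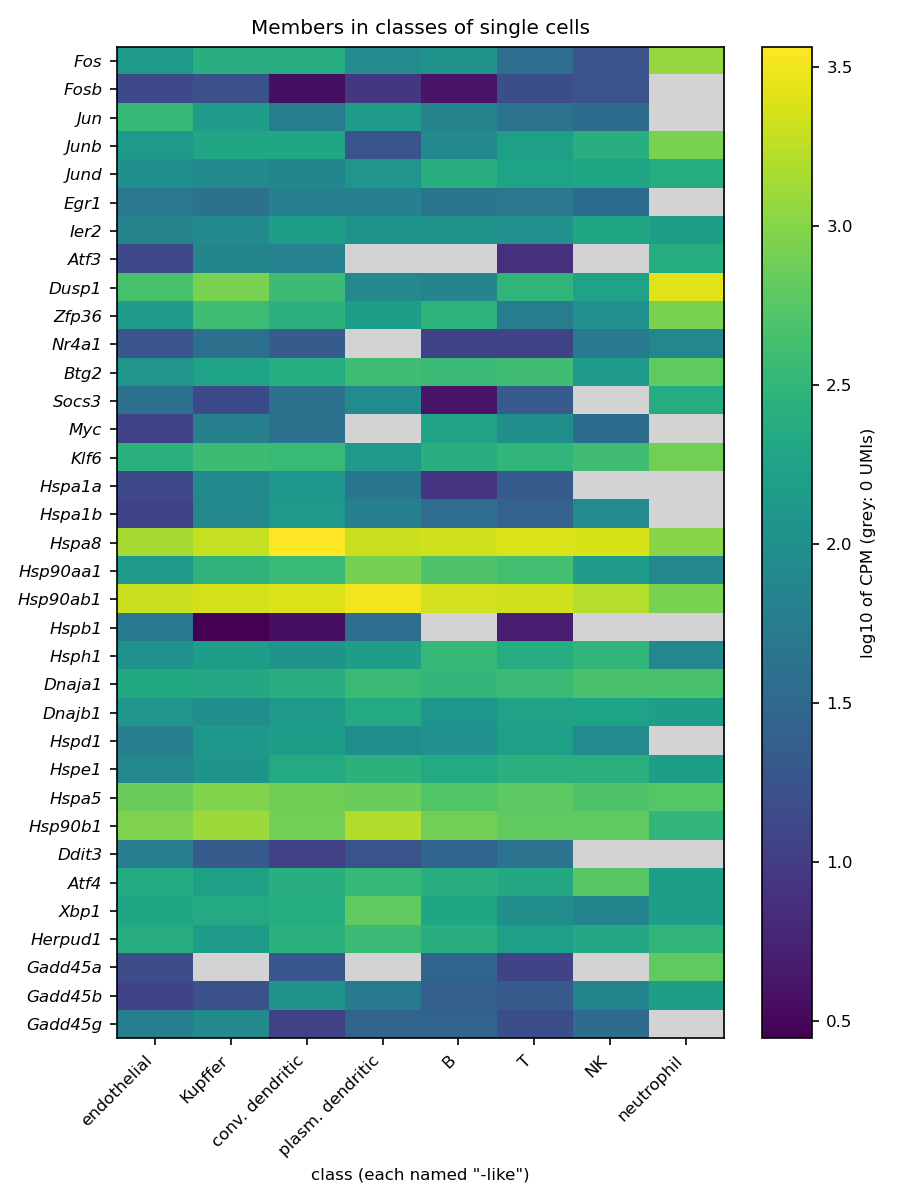
Level of the 35 members (rows) in the 8 classes of single cells (columns, endothelial-like first), coloured by log10 of CPM; grey marks 0 UMIs. Jun stands out in endothelial-like cells, Fos, Junb and Dusp1 in neutrophil-like cells, and Xbp1 in plasmacytoid dendritic-like cells. Hspb1 is highest in endothelial-like cells, with an interval that overlaps that of plasmacytoid dendritic-like cells.

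Levels in pairs were set beside those of single endothelial-like cells, which came from older mice and other plates. Endothelial RNA made up an estimated 2.40% of pair UMIs, the median over 20 endothelial markers (1.86% to 4.02%, the range over these markers). Pairs had 5.77 Fos CPM and endothelial-like cells 131, so that RNA would account for 54.3% of the pair level of Fos. For Klf6 the value was 67.4%, for Ddit3 26.5%, for Junb 21.6% and for Dusp1 13.7%. For Jun it was 8.18%, for Egr1 8.72%, for Hspb1 9.29%, for Myc 1.10% and for Hspa1b 0.946%. Fosb, with 11 UMIs in pairs, gave 169%, above what pairs held. Whether the layers of Fos follow the hepatocyte or the attached cell was not tested.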

How the data were processed

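The values deposited by the authors are counts: UMIs of each gene in each well, as whole numbers that were not normalized. The submitters' processing notes name bcl2fastq 2.15.0.4 and the mm9 build. The aligner and annotation were not given in the sources used here; 92 spike-in rows (0.715% of pair and 52.8% of single-cell UMIs) stayed out of totals. The members and gene lists were chosen with earlier results of these data known.

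Pairs needed 1000 gene UMIs and 20 UMIs of 25 landmark genes (13 pericentral, 12 periportal). The score was the pericentral share of both sums, each divided by its mean; zones lay above 0.643 and up to 0.325, and 1048 pairs lay within 0.05 of a limit. Levels are summed UMIs per 1000000 gene UMIs (CPM), with exact Poisson intervals; ratios have exact conditional binomial intervals. Single cells needed 300 UMIs and were clustered (scanpy 1.11.5, Leiden, resolution 1.0, 30 components of 2000 genes, 15 neighbours) without members and genes of the other pathway lists; a class needed 3 markers at 2-fold. Wells were filled by sorting and doublets were not called, so some single-cell wells may hold several cells. A planned test over mice was replaced by levels with intervals, as no source maps wells to mice. Every member is described, with all layers for those past 1.5-fold and lowest, median and highest block for those past 3-fold over blocks; from each list of other genes the 2 largest ratios in each direction are named. No column of per-sample values was set aside unmapped. Ratios between zones and their intervals were tested on simulated Poisson counts, and thinning on part of the real pairs. The simulation used the model that the intervals assume, so it does not cover further variation between wells, plates or mice. Alternatives covered scaling, depth, landmarks, zone limits, capped counts, minimum UMIs, cell filters, clustering and leaving out blocks. Libraries of 1 mouse may differ only technically.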

Additional observations from a re-analysis of the deposited data

How the results depend on the processing

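No paired analysis was possible because the wells could not be assigned to mice. Of the 9 members past 1.5-fold between zones, 8 kept their direction under every alternative run; log2 ratios spanned 1.31 to 3.44 for Gadd45b, 0.97 to 2.40 for Gadd45a, 0.94 to 2.22 for Hspb1, 0.80 to 1.58 for Atf3, 0.63 to 1.01 for Hspa1b, 0.56 to 1.09 for Jun, -2.39 to -0.81 for Fos and -1.91 to -1.17 for Egr1. Myc reversed to -0.15 with zones within blocks, and lay at 0.66 to 0.86 with 1 block left out at a time. The counts of 7 and 2 members held within 1.5 times under all of these. Of the periportal landmark UMIs, Pck1 held 53.9%, so landmarks without Pck1 were added after seeing the data, as was leaving out blocks 1 and 2. TMM and median-ratio scaling moved all log2 ratios by 0.089 and 0.067.

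The 11 members past 3-fold over blocks became 5 with pairs thinned to 2000 UMIs, 4 within the periportal zone and 3 without blocks 1 and 2, and 6 to 11 with 1 block left out at a time; fewer blocks and fewer UMIs enter these, and other causes were not tested. The 4 members 2-fold higher in endothelial-like cells became 2 against all other named cells summed, where Fos reversed to 0.026; that sum gives the 28 neutrophil-like cells little weight. Without the neutrophil-like class, added after seeing the data, the counts were 3 higher and 9 lower, and Fos (0.048) and Gadd45a (0.63) reversed. With the T-like clusters kept apart, also added then, they were 4 and 9. Of the alternatives for blocks and classes, only that without blocks 1 and 2 has a share over all genes (5.52%). The other counts therefore do not show whether members changed more than genes in general. Depth limits Fosb (11 UMIs in pairs), Gadd45b in layer 6 (7 UMIs) and all values of neutrophil-like cells.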
